A study of Mus musculus with 6 samples.

Results

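The regions described here are the genomic intervals of mouse chromosome 3 that the array design represents with probes of their own, placed by their distance from Foxo1. A member was any non-control probe whose systematic name gives a chromosome 3 interval with start, end and strand in the mm9 build. This rule found 895 probes among the 55681 non-control probes of the array, on 264 intervals counted with their strand. There were 205 distinct intervals, 59 of them covered on both strands, with 455 probes for the forward and 440 for the reverse strand. They ran from position 3030146 to position 152815072, with a median length of 5988 bp and a range of 159 to 533972 bp. Distance was taken from the midpoint of an interval to 52.1 Mb, the position used for Foxo1, in bins of 10 Mb.

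RNA came from full-thickness wounds in the dorsal skin of male mice, strain labelled C57/BL6, collected on day 3 after injury and hybridised to 1-colour Agilent arrays. One group of 3 arrays was wild type (WT) and the other group of 3 carried the FoxO1 +/- genotype. Per the labels, each mouse received 4 wounds made with a 4 mm punch and cut out with a 6 mm punch, so both groups hold wound and the skin around it. Age, the origin of the FoxO1 +/- line, its backcrossing, the disrupted part of the gene and the pooling of wounds are not given in the sources used here. The p-values below therefore measure the spread from array to array, which may be partly technical.

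Foxo1 encodes a forkhead transcription factor that growth factor and insulin signalling keeps out of the nucleus by phosphorylation. Interval probes of this kind were designed against stretches between annotated genes that may give rise to long noncoding transcripts, and many intervals carry probes for both strands because the transcribed strand was not known. A targeted allele is inherited together with the stretch of chromosome around it, so that sequence next to the gene can come from the strain in which the allele was made, and this is why a chromosome can be read by distance from the targeted gene.

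Signal was similar across the libraries with 1 exception. Members well above background made up 56.5% to 58.1% on the WT arrays, 56.9% and 53.9% on FoxO1 +/- replicates 1 and 2, and 45.5% on FoxO1 +/- replicate 3. The marker lists for skin were present: all 8 keratinocyte and all 6 fibroblast genes were above background on all 6 arrays. Adipocyte markers were higher in FoxO1 +/- wounds for 7 of 7 genes, with summed levels of 161 to 331 in WT and 373 to 487 in FoxO1 +/- wounds, in units of each array's 75th percentile. Sebaceous gland markers were lower for 6 of 6 genes, with sums of 60.4 to 125 against 36.2 to 39.3. The 10 hair follicle genes summed to 61.8 on WT replicate 1 and to 2.03 to 2.91 on the other arrays, and 7 of the 10 were above background on all 6. In such bulk tissue, fewer cells of a type and less RNA per cell cannot be told apart, and the part these markers play in the values below was not tested.

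Levels are log2 values relative to the 75th percentile of an array, and a level of 0 is therefore a probe at that percentile. Per-array values are given for WT replicates 1, 2 and 3 and then for FoxO1 +/- replicates 1, 2 and 3. A difference is FoxO1 +/- minus WT on the log2 scale, with its limma standard error (SE). Probes were tested when well above background on at least 3 of the 6 arrays of any genotype, and adjusted p-values are Benjamini-Hochberg values over all 39065 probes so tested.

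Foxo1 itself was measured first, as a check of the labels. On probe A_52_P453884 its level was 1.31, 1.04 and 1.51 in WT and 0.38, 0.50 and 0.30 in FoxO1 +/- wounds, a difference of -0.89 (SE 0.14, 95% interval -1.23 to -0.56). On probe A_51_P138044 it was 2.04, 1.81 and 2.32 against 1.54, 1.69 and 1.49, a difference of -0.48 (SE 0.15, 95% interval -0.84 to -0.12). All FoxO1 +/- arrays were below all WT arrays on both probes. Neither passed the adjustment in limma, with adjusted p-values of 0.214 and 0.583, and in an exact permutation test (two-sided) both gave 0.1, below which 3 arrays against 3 cannot go.

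Over the whole chromosome the interval probes differed little between the genotypes. Of the 895 members, 502 on 206 intervals with strand could be tested, 393 were too dim, and 316 of these 393 were not above background on any array. A total of 3 tested members passed the filter through the WT arrays alone and 0 through the FoxO1 +/- arrays alone, and 1 of those 3 is among the lower members counted below. The differences had a median of -0.02 and quartiles of -0.16 and 0.10, against medians of 0.01 for all probes tested, for the 8676 tested interval probes of the other chromosomes and for the 1120 tested probes of chromosome 3 genes. Of the tested members, 228 (45.4%) lay above 0 and 274 below, while 54.1% of all probes lay above 0. The medians of single arrays varied within a genotype with an SD of 0.087, which is larger than the median difference, and the sign of that median was not kept: it was 0.095 with normexp background correction, where the median of all probes was 0.061, and 0.022 within slide row 1.

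No member passed an adjusted p of 0.05 in limma (0 of 502), where 9 of all probes tested did (0.023%). At an adjusted p of 0.1 there were also 0 members, against 0.0358% of all probes, and the lowest adjusted p of a member was 0.121. At an unadjusted p under 0.05 there were 48 members (9.56%), 25 higher and 23 lower in FoxO1 +/- wounds, against a background of 6.44% over all probes tested, with 3.86% higher and 2.58% lower. The same share was 7.65% for interval probes of other chromosomes and 7.23% for probes of chromosome 3 genes. Among the 20 chromosomes that carry interval probes, chromosome 3 had the 2nd highest share at this threshold, below chromosome 17 with 10.6%. The count of 48 was 28 within slide row 1 (5.58%, against 3.74% of all probes), which holds 3 WT arrays and FoxO1 +/- replicate 1. With the slide row as a block it was 25 (4.98%, against 3.37% of all probes). The other row holds no WT array, so that fit is no separate check: its differences again set FoxO1 +/- replicate 1 against WT. When the probes of an interval and strand were averaged, 15 of 206 passed (7.28%, against 6.43% of all features in that fit).

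A second count does not rest on an estimated spread. The arrays of the genotypes did not overlap for 64 tested members (12.7%), 35 higher and 29 lower, against a background of 12.6% over all probes, with 8.16% higher and 4.43% lower. The shares were 12.2% for interval probes of other chromosomes and 12% for probes of chromosome 3 genes, and chromosome 3 was 9th of the 20 chromosomes. The members' share was thus near that of the array as a whole. The reverse strand held 38 of the 64 among 255 tested probes (14.9%) and the forward strand 26 among 247 (10.5%).

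Neither the size nor the sign of the differences was ordered by distance from Foxo1. Across the 502 tested members, Spearman's rho between the size of the difference and the distance was -0.026, and between the signed difference and the distance it was 0.001. These are descriptions, because probes of an interval share a target and all members share the same 6 libraries.

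**Figure D1:**
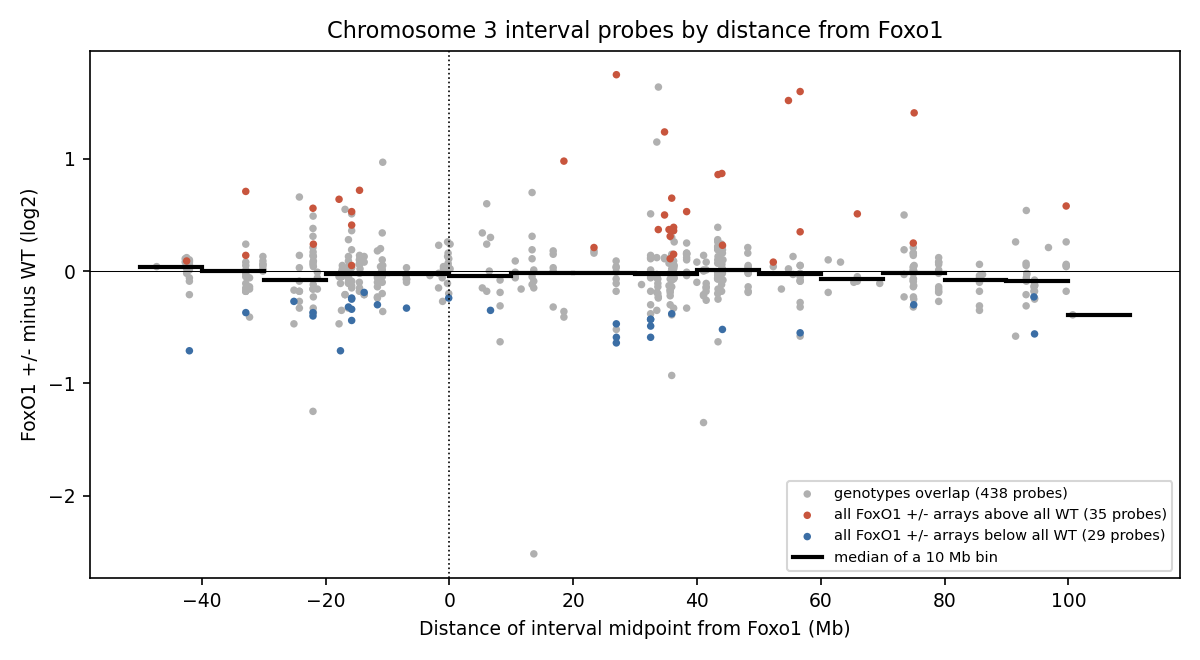
Difference between FoxO1 +/- and WT wounds (log2, y axis) for the 502 tested chromosome 3 interval probes against the distance of the interval's midpoint from Foxo1 (Mb, x axis). Red and blue points are the 35 higher and 29 lower members whose genotypes do not overlap, and bars are medians of 10 Mb bins, which lie between -0.09 and 0.04 except in the last bin, which holds 1 member at -0.39. The members above 1 lie at 27 Mb and beyond on the side of higher coordinates, and the lowest member, at -2.52, lies 13.6 Mb from Foxo1 with overlapping genotypes.

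Within 10 Mb of Foxo1 the array carries 84 member probes on 30 intervals with strand, and 40 of them on 23 intervals with strand were tested. Their differences ran from -0.63 to 0.60 with a median of -0.03, quartiles of -0.15 and 0.08, 19 above 0 and 21 below. The 462 tested members farther away had a median of -0.02. By array, the median level of the 40 members was -4.23, -4.12 and -4.17 in WT and -4.16, -4.48 and -4.22 in FoxO1 +/- wounds, so that the groups overlapped and FoxO1 +/- replicate 2 was lowest. On the side of lower coordinates the median of 26 members was -0.03, and on the other side that of 14 members was -0.04.

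In the nearest 10 Mb, 4 of 40 members reached a limma p under 0.05 before adjustment (10%), of which 1 was higher and 3 were lower, compared with 44 of 462 beyond 10 Mb (9.52%), and none was past the adjusted threshold. Genotypes did not overlap for 3 of 40 (7.5%), all lower in FoxO1 +/- wounds, compared with 61 of 462 farther away (13.2%). In this bin 0 of 40 members differed 2-fold, and farther away 10 of 462 did, against 1.37% of all probes tested. The 95% interval of the difference, taken for each probe alone, lay inside 2-fold in either direction for 38 of the 40, as it did for 89.1% of all probes tested. The count of 4 was 2 without WT replicate 2 and 1 on leaving out any of WT replicate 3 and FoxO1 +/- replicates 1 and 3. It was 7 with normexp, 2 with quantile normalization and 0 of 23 with probes averaged by interval and strand.

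**Figure D2:**
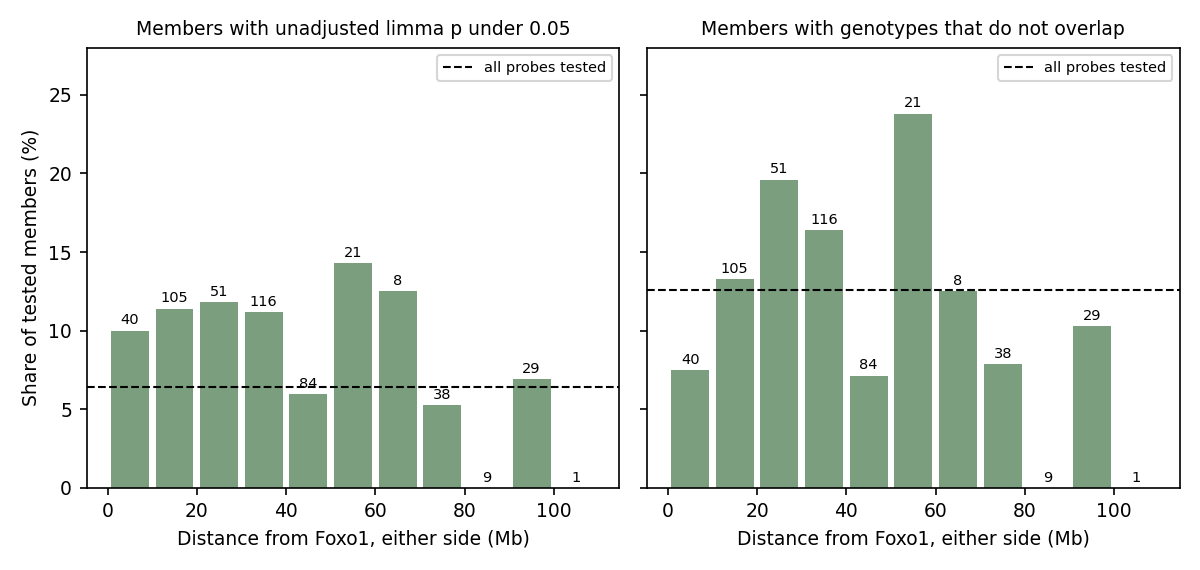
Share of tested members (%, y axis) with an unadjusted limma p under 0.05 (left) and with genotypes that do not overlap (right) in 10 Mb bins of distance on either side of Foxo1 (Mb, x axis), with the number of tested members above each bar. Dashed lines mark all probes tested, 6.44% and 12.6%, and the bin next to Foxo1 holds 10% and 7.5%.

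With both sides of Foxo1 pooled, the bins farther out held between 0% and 23.8% non-overlapping members, against 12.6% of all probes tested. Non-overlapping members made up 13.3% of 105 at 10 to 20 Mb, 19.6% of 51 at 20 to 30 Mb, 16.4% of 116 at 30 to 40 Mb and 7.14% of 84 at 40 to 50 Mb. The highest share of these pooled bins was 23.8% of 21 members at 50 to 60 Mb, or 5 probes. With the sides apart, it was 33.3% of 15 members, also 5 probes, at 20 to 30 Mb above Foxo1, and 13.9% of 36 at the same distance below it. Most of the 5 probes above Foxo1 lay in the neighbouring intervals chr3:79069438-79073704 and chr3:79075801-79076428. One of them, A_30_P01023158, passed the filter through the WT arrays alone. Bins from 60 Mb on held 1 to 38 tested members each, with 0% to 12.5% of them non-overlapping. Bin medians up to 100 Mb lay between -0.09 and 0.02, and the bin beyond that held 1 tested member, at -0.39.

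The 6 intervals nearest to Foxo1 that had a tested probe lie between 0.31 Mb below it and 0.11 Mb above it. They hold 18 probes, of which 13 were tested and 9 were above background on all 6 arrays. Differences ran from -0.24 to 0.26, with 10 above 0 and 3 below, and their 95% intervals together spanned -0.77 to 0.87. Genotypes overlapped for 12 of the 13 and did not for 1. The differences of the Foxo1 probes, -0.89 and -0.48, lay below those of these 13, but their 95% intervals overlapped with some of the 13.

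The exception was A_30_P01018696, on the forward strand of chr3:51990494-51991875, 0.11 Mb below Foxo1. Its level was -5.21, -5.20 and -5.31 in WT and -5.52, -5.38 and -5.54 in FoxO1 +/- wounds, a difference of -0.24 (SE 0.09, limma unadjusted p 0.0306, adjusted p 0.694). Every FoxO1 +/- array was below every WT array, but the signal was dim, above background on 2 of 3 FoxO1 +/- arrays, and with normexp the difference was 0.06. The other tested probe of this interval, A_30_P01019595, had levels of -5.53, -5.0 and -5.33 against -5.86, -5.53 and -5.07, and its genotypes overlapped (-0.20, SE 0.23).

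On the forward strand of chr3:52002170-52004411, 0.10 Mb below Foxo1, A_30_P01023204 had levels of -3.87, -3.98 and -3.88 in WT and -3.93, -3.69 and -3.77 in FoxO1 +/- wounds. FoxO1 +/- replicate 1 fell among the WT arrays, and the difference was 0.11 (SE 0.09). On the other side of the gene, the forward interval chr3:52206874-52207385 had 2 tested probes. A_30_P01020489 read -4.45, -4.34 and -4.30 in WT and -4.32, -3.56 and -4.46 in FoxO1 +/- wounds. Its difference of 0.24 (SE 0.24) came from FoxO1 +/- replicate 2, and without that array it was -0.03. A_30_P01033279 differed by 0.02 (SE 0.17).

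On the lower side, 2 reverse-strand intervals held 6 of the tested probes. At chr3:51890691-51891781, A_30_P01019529 read -2.42, -2.09 and -2.43 in WT and -2.16, -2.26 and -2.29 in FoxO1 +/- wounds, with overlapping genotypes and a difference of 0.07 (SE 0.12). Its companions A_30_P01029060 and A_30_P01029774 differed by 0.05 (SE 0.15) and 0.16 (SE 0.19). At chr3:51804655-51805883 the probes A_30_P01024105, A_30_P01024504 and A_30_P01031348 differed by 0.26, 0.04 and 0.13. FoxO1 +/- replicate 1 was the highest array on all 3, at -3.26, -3.61 and -2.45, and without it the differences were -0.02, -0.17 and -0.09. The forward interval chr3:51784862-51793999 had differences of 0.03 (A_30_P01020431) and -0.11 (A_30_P01026312), both with overlapping genotypes.

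**Figure D3:**
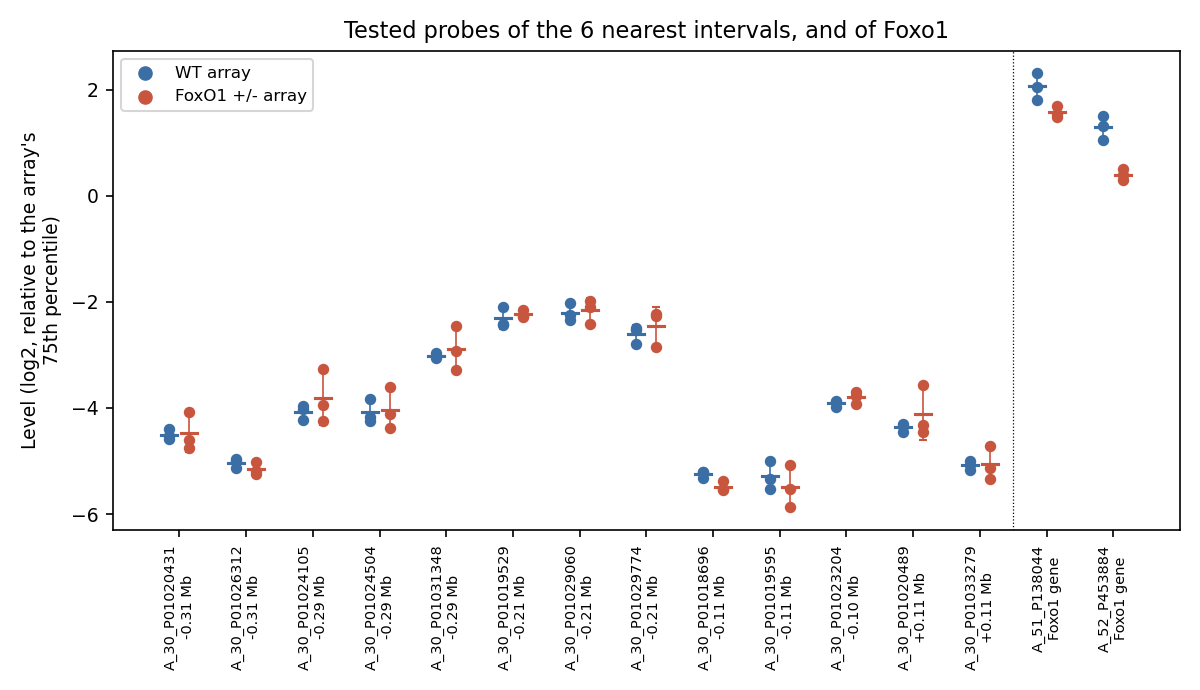
Level (log2, relative to the 75th percentile of the array, y axis) on each array for the 13 tested probes of the 6 intervals nearest to Foxo1, in order along the chromosome with their distance in Mb, and for the 2 Foxo1 probes at the right. Points are single WT (blue) and FoxO1 +/- (red) arrays, horizontal bars are means and vertical bars SDs (n = 3): genotypes part on both Foxo1 probes and on A_30_P01018696, and overlap on the other 12 interval probes.

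The remaining probes within 10 Mb that had an unadjusted limma p under 0.05 were above background on all 6 arrays. Genotypes did not overlap on the lower ones and overlapped on the higher one. A_30_P01033515, on the reverse strand of chr3:58730418-58742493, read -4.05, -3.78 and -3.94 in WT and -4.24, -4.47 and -4.10 in FoxO1 +/- wounds, a difference of -0.35 (adjusted p 0.724), and the other tested probe of that interval, A_30_P01033021, differed by 0.30. A_30_P01027953, on the forward strand of chr3:45163252-45179177, read -4.52, -4.39 and -4.16 against -4.64, -4.54 and -4.88, a difference of -0.33 (adjusted p 0.776). Its 2 tested companions on that strand differed by -0.07 and 0.03, and the 3 reverse-strand probes there by -0.10 to -0.07. The only higher probe was A_30_P01017564, on the forward strand of chr3:58118325-58136550, with levels of -1.48, -0.99 and -1.66 against -1.12, -0.82 and -0.39. Its genotypes overlapped at WT replicate 2, the difference was 0.60 (SE 0.24, adjusted p 0.770), and its companion A_30_P01032595 differed by -0.18.

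Some other members of the bin also had signals above its median level of -4.17. A_30_P01029881, on the forward strand of chr3:58496493-58601253, read 1.82, 2.10 and 1.99 in WT and 1.79, 2.17 and 1.96 in FoxO1 +/- wounds, a difference of 0.00 (SE 0.13, 95% interval -0.32 to 0.32). A_30_P01031737, on the forward strand of chr3:51138643-51146693, 0.96 Mb below Foxo1, read -1.44, -1.22 and -1.37 against -1.27, -1.37 and -1.28, a difference of 0.04 (95% interval -0.19 to 0.26). On both, the arrays of the genotypes were interleaved. At chr3:60292527-60292880 on the reverse strand, 3 probes of 1 interval differed by -0.63, -0.31 and -0.08, all with overlapping genotypes.

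Annotated genes beside Foxo1 were read in the same way. Of the 20 genes on each side in the RefSeq order of a later assembly, 35 had a tested probe, and each was represented by its brightest one. Of these, 19 were higher and 16 lower in FoxO1 +/- wounds, with a median difference of 0.01. Further tested probes, as on Maml3 (3 tested) and Cog6 (2 tested), were not counted. In limma 0 of the 35 had an unadjusted p under 0.05, and 0 had non-overlapping genotypes, whereas over all probes tested those shares were 6.44% and 12.6%. The count was 1 with the slide row as a block, 2 with array weights and 3 without WT replicate 2. Maml3, the gene before Foxo1 and a coactivator of Notch signalling, read 0.10, -0.09 and 0.02 in WT and 0.03, -0.38 and 0.03 in FoxO1 +/- wounds (-0.11, SE 0.14). Cog6, the gene after it and a subunit of a Golgi tethering complex, read 1.27, 1.44 and 1.38 against 1.37, 1.44 and 1.32 (0.01, SE 0.09). Postn, a few genes further on, encodes the wound matrix protein periostin and differed by 0.26 (SE 0.16). On each of these 3 genes the genotypes overlapped.

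The members with the smallest p among those that were non-overlapping and at least 1.5-fold apart lay far from Foxo1, 17.6 to 75.1 Mb away. The rule took up to 6 in each direction and found 6 higher and 5 lower, none within 10 Mb. Among the 5 lower, A_30_P01023158 passed the filter through the WT arrays alone, and only a bound is given for it below. Since the 11 members were chosen for their differences, the values that follow describe them. Their adjusted p-values in limma ran from 0.121 to 0.863, and all 11 had a mean WT level below -3. Members with an unadjusted p under 0.05 and a 1.5-fold difference numbered 17 of 502, against 2.53% of all probes tested.

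The smallest p belonged to A_30_P01022280, on the reverse strand of chr3:86827945-86886695, 34.8 Mb above Foxo1. It read -4.82, -4.39 and -4.63 in WT and -3.45, -3.20 and -3.47 in FoxO1 +/- wounds, a difference of 1.24 (SE 0.14, limma adjusted p 0.121), or 2.36-fold, and with normexp 0.79. All FoxO1 +/- arrays were above all WT arrays. The interval has 7 probes on this strand, 4 of them tested and all 4 higher: A_30_P01022760 read -2.55, -2.55 and -2.85 against -2.39, -2.02 and -2.05 (0.50), and the others differed by 0.12 and 0.11 with overlapping genotypes. Those 2 smaller differences were -0.15 and -0.16 within slide row 1.

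At 27.0 Mb above Foxo1, 2 neighbouring intervals on opposite strands both held named members. The forward interval chr3:79075801-79076428 held A_30_P01027335, which read -3.35, -2.98 and -3.73 in WT and -2.18, -1.71 and -0.91 in FoxO1 +/- wounds, a difference of 1.75 (SE 0.35, limma adjusted p 0.325). All FoxO1 +/- arrays were above all WT arrays, and replicate 3 was highest. With normexp the difference was 1.37. The other tested probe of the same interval and strand, A_30_P01023158, read -5.83, -5.27 and -5.12 in WT and was not well above background in FoxO1 +/- wounds. It passed the filter through the WT arrays alone, so only a bound is given, at least 1.16-fold lower in FoxO1 +/- wounds, and its direction is not compared with that of the other probe. That bound compares the WT mean with a floor on each FoxO1 +/- array, namely the dimmest probe well above background there, or this probe if it read higher.

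Just below it, the reverse interval chr3:79069438-79073704 was the second of 2 intervals in which all of at least 3 tested probes differed in the same direction and at least 2 did not overlap. A_30_P01021698 read -3.94, -4.07 and -4.13 in WT and -4.49, -4.56 and -4.49 in FoxO1 +/- wounds (-0.47, SE 0.08, limma unadjusted p 0.00138, adjusted p 0.298). A_30_P01024788 read -4.50, -4.32 and -4.49 against -4.98, -5.47 and -4.80 (-0.64, adjusted p 0.536). On both probes every FoxO1 +/- array was below every WT array. With normexp these differences were -0.11 and -0.04. A_30_P01027087 differed by -0.52 with overlapping genotypes, by 0.29 within slide row 1 and by 0.03 with normexp.

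Both of the next members were dim in WT, and the other probes of their intervals differed less. A_30_P01019077, on the forward strand of chr3:108763862-108772151, read -6.41, -5.45 and -6.28 in WT and -4.40, -4.54 and -4.40 in FoxO1 +/- wounds (1.60, SE 0.26, limma adjusted p 0.230), and was above background on 1 of 3 WT arrays and 3 of 3 FoxO1 +/- arrays. A_30_P01018294, on the forward strand of chr3:127170996-127201096, read -4.97, -4.08 and -4.79 against -3.22, -3.39 and -3.02 (1.41, SE 0.24, adjusted p 0.276). Without WT replicate 2, the WT array nearest to the other genotype on both, these 2 probes passed an adjusted p of 0.05 in limma. For A_30_P01018294 the adjusted p was 0.0420. A_30_P01019077 had no WT array above background left in that fit and passed through the FoxO1 +/- arrays alone, so its p-value is not given. These 2 probes were the only members past an adjusted p of 0.05 in any of the fits run, and 64 of all probes passed in the fit without WT replicate 2. With normexp the 2 differences were 0.64 and 0.91. Other tested probes of the first interval differed by -0.55 to 0.35, and those of the second by -0.01 and 0.05.

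A_30_P01018930, on the reverse strand of chr3:88009045-88036270, read -4.0, -3.85 and -4.07 in WT and -3.21, -3.41 and -3.36 in FoxO1 +/- wounds (0.65, SE 0.10, limma adjusted p 0.219). Its tested companions A_30_P01032632 and A_30_P01017881 differed by 0.30 and -0.39, with overlapping genotypes. A_30_P01024908, on the reverse strand of chr3:95496886-95497183, read -5.24, -4.60 and -5.02 against -4.27, -4.10 and -3.91 (0.86, SE 0.19, adjusted p 0.348). It had no other tested probe in its interval. With normexp the 2 differences were 0.41 and 0.54.

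The lower members other than A_30_P01023158 had adjusted p-values of 0.536 to 0.863 in limma. A_30_P01023135, on the reverse strand of chr3:10081893-10094218, 42.0 Mb below Foxo1, read -4.01, -3.94 and -3.92 in WT and -4.79, -5.08 and -4.15 in FoxO1 +/- wounds (-0.71, limma adjusted p 0.627). A_30_P01026007, on the reverse strand of chr3:34497447-34501170, read -4.23, -3.91 and -3.38 against -4.38, -5.0 and -4.27 (-0.71, adjusted p 0.752). A_30_P01025499, on the reverse strand of chr3:84610558-84611133, read -4.07, -4.02 and -2.82 against -4.26, -4.29 and -4.15. Its difference of -0.59 came mainly from WT replicate 3, and the adjusted p was 0.863. With normexp the 3 differences were -0.21, -0.29 and -0.09.

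**Figure D4:**
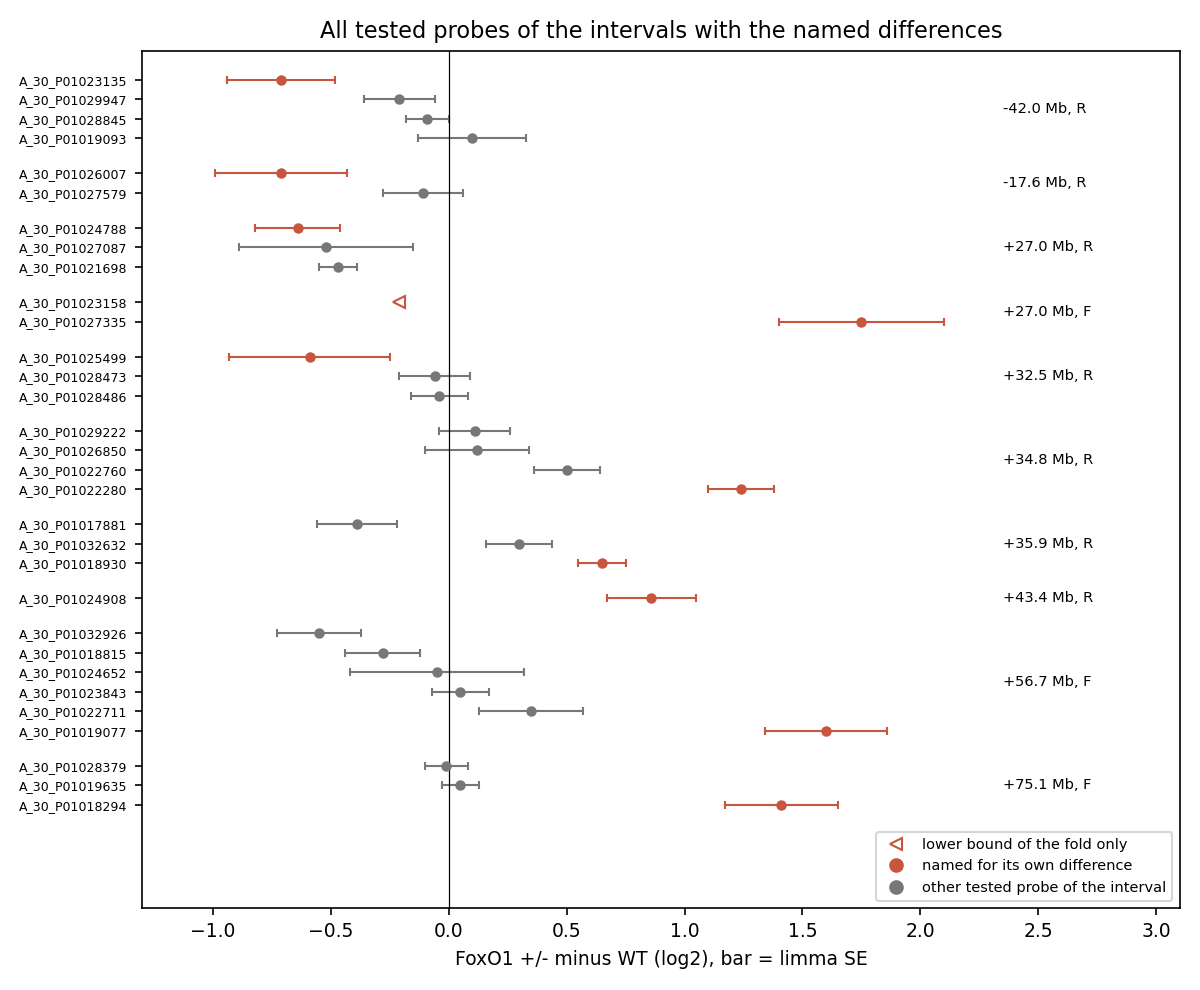
Difference between FoxO1 +/- and WT wounds (log2, x axis, bars are limma SEs) for every tested probe of the intervals that hold the 11 members named for their own difference (red) and for their companions (grey), grouped by interval with distance from Foxo1 and strand (F forward, R reverse). The open triangle is the bound of 1.16-fold for A_30_P01023158, whose true difference may lie farther left, and the largest plotted difference is 1.75 for A_30_P01027335.

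Probes of 1 interval and strand were set beside each other. The intervals of the 11 named members held 20 other tested probes, and 4 of these were non-overlapping (background 12.6%). In all, 80 intervals with strand had at least 3 tested probes. Of these, 51 had 0 non-overlapping probes, 20 had 1 and 9 had 2 or more, and in 4 there were non-overlapping probes in both directions. All probes differed in the same direction in 28 of the 80, including 18 of the 43 with exactly 3 tested probes. On the 45 intervals tested on both strands, the mean difference had the same sign on both strands in 21, and Pearson's r between the strands was -0.03 (45 intervals, a description).

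Most members with small p-values were dim, as were most tested members. Of the 48 with an unadjusted limma p under 0.05, 5 had signals under -5, 21 between -5 and -4 and 11 between -4 and -3. Those bands held 84, 125 and 101 of the 502 tested members. The tested members had a median signal of -3.63, and 209 of them (41.6%) lay under -4, where the spread between arrays was wider: the median SE over all probes was 0.17 for signals between -5 and -4 and 0.10 above -1. Between -5 and -4, 16.8% of 125 members had an unadjusted limma p under 0.05, against 9.6% of all probes in that band. Between -4 and -3 the shares were 10.9% of 101 members and 7.51%. Below -5 they were 5.95% of 84 members and 11.3%, and between -3 and -1 they were 4.03% of 124 members and 5.88%. Members above -1 numbered 68, and 8.82% of them had a p under 0.05, against 4.57% of all probes in that band. Signals of different probes also depend on the probes themselves and are not compared as amounts of RNA.

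Among the members with strong signal, the forward interval chr3:87757295-87774970 had 5 tested probes. A_30_P01026280 read 6.37, 6.34 and 6.43 in WT and 6.70, 6.57 and 6.82 in FoxO1 +/- wounds, a difference of 0.31 (SE 0.09, limma unadjusted p 0.0137, adjusted p 0.561). All FoxO1 +/- arrays were above all WT arrays on that probe. The other 4 probes of the interval differed by -0.19 to -0.13, with overlapping genotypes, so that the probes of this interval disagreed in sign. A_30_P01033236, on the reverse strand of chr3:96215885-96218756, read 5.47, 5.46 and 5.44 against 5.65, 5.61 and 5.77, a difference of 0.23 (adjusted p 0.694) with no overlap.

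The 2 widest spreads belonged to members that were high on 1 array. Some of the next widest belonged to members that were low on FoxO1 +/- replicates 2 and 3. A_30_P01025791, on the forward strand of chr3:65740585-65741001, was at 1.16 on WT replicate 2 and at -6.05 to -4.78 on the other 5 arrays, which gave the lowest difference of the chromosome, -2.52 (limma unadjusted p 0.180). A_30_P01018127, on the forward strand of chr3:85842798-85887216, was at 0.73 on FoxO1 +/- replicate 2 and at -3.90 to -3.53 on the others, a difference of 1.64 (unadjusted p 0.206). Genotypes overlapped on both. Members at least 2-fold above the median of the other 5 arrays numbered 9 on FoxO1 +/- replicate 2 (1.79%, against 1.17% of all probes). They numbered 7 on replicate 3 (1.39%, against 1.31%) and 5 on WT replicate 2 (0.996%, against 0.829%). On WT replicate 1, the array with the high hair follicle markers, there were 0 (against 0.722% of all probes). At least 2-fold below that median were 16 members on WT replicate 1 (3.19%, against 1.33% of all probes), 12 on FoxO1 +/- replicate 2 (2.39%, against 1.04%), 7 on FoxO1 +/- replicate 3 (1.39%, against 1.54%) and 2 to 5 on the other arrays.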

How the data were processed

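The deposited scanner files hold linear spot intensity values that the authors extracted with Agilent Feature Extraction 10.7.1.1, per the file headers, with an mm9 annotation, while 9.1 is the version in the submitters' processing notes. Per the file headers, the authors' processed signal has the background removed on each array and no scaling between arrays. Deposited flags (other values than signals) marked outlier spots and spots well above background, and no spot was saturated. The authors' value table held the same signal, linear and uncentred: 59305 of 59305 non-control spots matched within 1% on every array, with medians of 122, 127 and 137 (WT) and 118, 118 and 101 (FoxO1 +/-). The arrays shared 1 slide and 1 scan, with the 3 WT arrays and FoxO1 +/- replicate 1 in slide row 1 and FoxO1 +/- replicates 2 and 3 in row 2.

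Each array gave 62976 spots. Spots of a probe were averaged as log2 values without outlier spots, and each array was scaled by subtracting its 75th percentile of non-control probes. A total of 36 probes lacked a value on some array, none of them a member. FoxO1 +/- minus WT was fitted with R 4.3.3 and limma 3.58.1 (a two-sided test from lmFit and eBayes, without covariates) on the 39065 probes well above background on at least 3 of 6 arrays. The fit was checked on simulated data. The number of arrays limits the precision. Genes were named through RefSeq accessions (25869 of 26392 probes with an mRNA accession matched) in a GRCm38 table, used for symbols and gene order and for no coordinates, and a gene was represented by its brightest tested probe.

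Members named were the tested probes of the 6 nearest intervals, members past an adjusted p of 0.05, the 6 higher and 6 lower with the smallest p among those non-overlapping and at least 1.5-fold apart (and the same within 10 Mb), and intervals whose probes agreed. Other probes named here were chosen after their values were seen. Members, marker lists and tests were chosen with earlier results of these data known. Alternatives were normexp background correction (offset 50, on the median spot signal, since the files used here have no mean signal column), quantile and median scaling, other filters, the value table, blocks, array weights, bin widths, averaging by interval and leaving out each array.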

Additional observations from a re-analysis of the deposited data

How the results depend on the processing

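Each genotype had 3 arrays, and 393 members were too dim to test. With normexp, the non-overlapping members numbered 97 (19.3%, against 16.9% of all probes), the median difference was 0.095 over all members and 0.113 within 10 Mb of Foxo1, and 7 members there had an unadjusted p under 0.05. That count was 2 with quantile normalization, 1 of 21 with 5 Mb bins, 16 of 145 with 20 Mb bins and 0 of 23 with 1 value per interval and strand. In this last setting 15 of 206 passed over the chromosome (7.28%, against 6.43% of all features). Genotypes did not overlap for 23 of 206 (11.2%, against 12.6% of all features). With the slide row as a block, 25 members (4.98%, against 3.37% of all probes) and 1 gene next to Foxo1 had an unadjusted p under 0.05. The differences in that fit are those within slide row 1, because the other row holds no WT array. Within slide row 1 there were 28 members (5.58%, against 3.74%), and 208 did not overlap (41.4%, against 45.2%), a looser condition with 1 FoxO1 +/- array. Array weights gave 2 genes next to Foxo1. Same-numbered arrays deviated with correlations of -0.12, -0.15 and -0.23, and differently numbered arrays with correlations of -0.02 to 0.18. Such small values show no pairing by number but cannot exclude it. With the replicate number as a block, 0 of the 40 members near Foxo1 and 40 of the 502 (7.97%, against 5.08% of all probes) had an unadjusted p under 0.05, and 0 passed the adjustment. Leaving out 1 array at a time gave 38 to 54 members with an unadjusted p under 0.05 (7.57% to 10.8%, against 4.86% to 8.42% of all probes). Past the adjusted threshold were 0 to 2 members, 1 of the 2 with no WT array above background. An unadjusted p under 0.05 was reached by 1 to 3 members near Foxo1 and by 0 to 3 genes next to it. Non-overlapping members numbered 96 to 129 (19.1% to 25.7%, against 19.7% to 27.5% of all probes), since fewer arrays make overlap rarer. Both Foxo1 probes stayed below 0 under every alternative, at -0.60 to -0.35 and -1.02 to -0.78. Normexp gave 0.41 to 1.37 for the 6 higher members named for their difference. For the lower ones other than A_30_P01023158 it gave -0.29 to -0.04. Normexp did not shrink every dim difference, and A_30_P01033279 went from 0.02 to 0.26. Signs turned under it for A_30_P01026312 (0.12), A_30_P01018696 (0.06) and A_30_P01027087 (0.03). With the slide row as a block, and within row 1, they turned for A_30_P01023204 (-0.02), A_30_P01027087 (0.29), A_30_P01026850 (-0.15) and A_30_P01029222 (-0.16), and with median scaling A_30_P01033279 (-0.01). Leaving out 1 array at a time gave ranges that cross 0 for A_30_P01020431 (-0.17 to 0.17), A_30_P01024105 (-0.02 to 0.47), A_30_P01024504 (-0.17 to 0.22), A_30_P01031348 (-0.09 to 0.32), A_30_P01029060 (-0.04 to 0.17), A_30_P01020489 (-0.03 to 0.42), A_30_P01033279 (-0.15 to 0.16) and A_30_P01026850 (-0.1 to 0.25). The cause was not tested.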

Other observations

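The array also held 3 interval probes of chromosome 3 without a strand, all for chr3:34856791-34869544 (mm9), which were not members. A_30_P01017966 read -4.79, -5.41 and -4.81 in WT and -4.95, -3.99 and -4.98 in FoxO1 +/- wounds, a difference of 0.36 with overlapping genotypes (limma unadjusted p 0.299). The other 2 were above background on 0 and 2 arrays and were not tested.

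A_30_P01018255, on the reverse strand of chr3:106858397-106896812, was the next higher member after the 6 that the naming rule took. It read -3.99, -3.65 and -4.43 in WT and -3.05, -2.57 and -1.87 in FoxO1 +/- wounds, a difference of 1.52 (limma adjusted p 0.361), with no overlap. The other tested probe of that interval and strand, A_30_P01033028, differed by 0.02.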
